A study of Cricetulus griseus with 24 samples.

Results

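Oasl, Irf1, Irf7, Irf9, Stat2 and Isg15, 6 genes known to take part in interferon responses, were followed across every group of an RNA-seq study of hamster phagocytes that eat dying cells. They were chosen by name, as were the pathway genes listed further below, with earlier results of these data known. The deposited count tables hold 26776 gene names, of which these are 6. The phagocytes were LR73 cells, a line derived from Chinese hamster ovary cells that takes up apoptotic cells although it is no professional phagocyte. The corpses came from Jurkat, a line of human T lymphocytes, and had been exposed to 1500 mJ of ultraviolet C light and kept for 4 h before meeting the phagocytes. The first experiment had 4 groups of 4 libraries, all from LR73 cells with no stated genetic change. One was left alone and served as the control, one received cytochalasin D, one received apoptotic cells, and one received both. Cytochalasin D caps actin filaments, and cells treated with it can bind corpses but cannot engulf them. The second experiment had wildtype and Slc12a2-deficient LR73 cells, again with 4 libraries each. Both genotypes there had received apoptotic cells for 2 h and had been sorted for CypHer5E, a dye that lights up in acid compartments and marks cells that have taken up a corpse, so that experiment has no group without corpses. Slc12a2 encodes NKCC1, a transporter that carries sodium, potassium and chloride into the cell. The sources used here do not give how the gene was removed, whether the deficient cells are 1 clone, or how long cells were co-cultured in the first experiment.

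Interferons are cytokines that cells release when they sense foreign or misplaced nucleic acid. Type I and III interferons bind receptors that activate the kinases Jak1 and Tyk2, which phosphorylate Stat2, and Stat2 acts with Irf9 in a complex called ISGF3 that enters the nucleus and switches on interferon-stimulated genes. Irf1 and Irf7 are transcription factors that are themselves induced, Irf1 most strongly by interferon gamma and Irf7 by type I interferon, and Irf7 in turn drives interferon genes. Oasl and Isg15 are among the products, Oasl a protein related to the oligoadenylate synthetases that acts in RNA sensing, and Isg15 a small ubiquitin-like protein that is attached to other proteins. Phagocytes that clear apoptotic cells are known for doing so without a strong inflammatory or antiviral response.

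Levels are given as CPM, which is counts per 1000000 counts of the library after scaling by edgeR's TMM factors, and fold changes with their standard errors (SE) come from edgeR's quasi-likelihood test. A gene was called changed when its p-value, adjusted by the Benjamini-Hochberg method over all genes tested in that comparison, was under 0.05. Libraries held 8272232 to 18911353 counts in the first experiment and 22758587 to 28450594 in the second. The replicates are described by the submitters as biological. Of 11 fibroblast markers in the tables, Vim and Fn1 were abundant, at 2984 to 5717 and 931 to 1133 CPM in the first experiment, while Col1a1, Col1a2, Thy1 and Lum were too low to be tested there, so the labelled fibroblast identity rests on part of its markers. The summed fibroblast markers, most of which was Vim, were 5228 to 5766 CPM in control, 4133 to 4788 with cytochalasin D, 6412 to 6920 with apoptotic cells, 4198 to 4668 with both, 4163 to 4461 in wildtype and 4003 to 4312 in deficient libraries. The summed level of 19 T cell markers, mostly Tcf7 and Lat in every group (23.7 and 11.0 CPM in control), was 34.9 to 37.2 CPM in control, 30.8 to 37.1 with cytochalasin D, 42.7 to 46.4 with apoptotic cells, 42.0 to 46.8 with both, 29.6 to 32.3 in wildtype and 23.3 to 28.1 in deficient libraries. The T cell genes Lck, Zap70 and Lef1 were at 0 to 2 counts without apoptotic cells and at 18 to 94 with them in the first experiment, Cd3g, Cd2 and Cd5 were at 0 in all 6 groups, and the 11 myeloid markers in the tables summed to 1.26 to 4.24 CPM over all libraries. These T cell genes moved with apoptotic cells in the first experiment, and their part in the results on the 6 genes was not tested.

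With apoptotic cells, Oasl and Irf1 were lower and none of the 6 genes was higher. Without the drug, 2 of the 6 were called lower, against 13.7% of all 13106 genes called in either direction, 6.97% higher and 6.68% lower. With cytochalasin D present in both groups, the same 2 genes were called lower, against 8.61% of all genes called in either direction, 4.82% higher and 3.79% lower. Cytochalasin D by itself raised Oasl and Stat2, 2 of 6, against 26.3% of all genes called in either direction, 13.5% higher and 12.8% lower. In the second experiment, Irf1 and Irf9 were higher and Stat2 was lower in Slc12a2-deficient phagocytes, 3 of 6, against 42.5% of all 13050 genes called, 21.1% higher and 21.3% lower, so a count of 3 lies close to the background of that comparison. All 6 genes passed the filter on low counts in both experiments. In such bulk libraries, fewer cells that express a gene and less RNA per cell cannot be told apart.

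**Figure D1:**
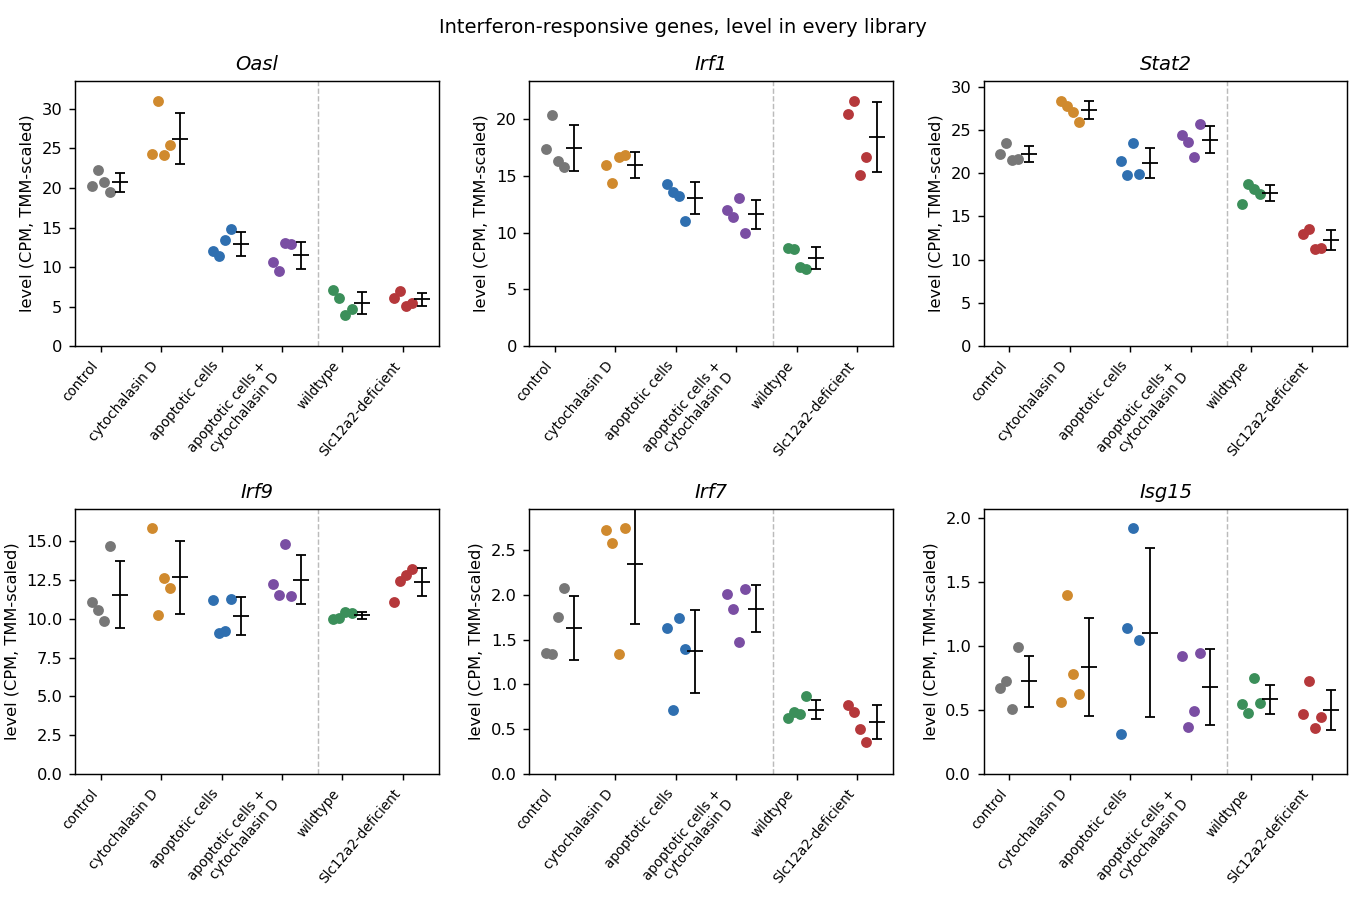
Level of each of the 6 genes in every library, in TMM-scaled CPM on a linear axis that starts at 0. Each dot is 1 library, the bar beside it is the group mean with its SD over 4 libraries, and the dashed line separates the first experiment from the second. Oasl sits below 15 CPM in all 8 libraries with apoptotic cells of the first experiment and above 19 CPM in the 8 without, and Irf1 in the deficient libraries lies above 15 CPM where wildtype lies below 8.7 CPM.

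To compare the genes with each other, CPM was divided by the counted length in kilobases. Irf1 was the most abundant per length, at a mean of 22.9 CPM per kb over the first experiment, at a percentile of 67.0 among the genes tested. Oasl followed at 8.59 CPM per kb, then Stat2 at 5.98, Irf9 at 4.77, Irf7 at 1.24 and Isg15 at 1.17, and the last pair stood at percentiles of 13.1 and 12.4. In the second experiment Irf1 was again first at 20.7 CPM per kb, followed by Irf9 at 4.59, Stat2 at 3.8, Oasl at 2.75, Isg15 at 0.758 and Irf7 at 0.447. Isg15 was read from 3 to 33 counts per library in the first experiment and 10 to 20 in the second, and Irf7 from 10 to 44 and 8 to 22, so only large changes of these 2 genes could be seen. The counted lengths were 634 bases for Irf1 in 6 exon pieces, 2077 for Oasl in 6, 3952 for Stat2 in 24, 2462 for Irf9 in 11, 1449 for Irf7 in 9 and 714 for Isg15 in 2. Counting used no strand, so that reads of a gene overlapping on the other strand cannot be told apart.

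Stat2, the signalling subunit of ISGF3, was one of the steadier genes. Its level was 22.20, 23.53, 21.52 and 21.61 CPM in the control libraries and 21.38, 19.77, 23.48 and 19.89 CPM with apoptotic cells. With cytochalasin D it was 28.38, 27.79, 27.08 and 25.91 CPM, and with both it was 24.43, 23.55, 21.91 and 25.66 CPM. The control libraries and those with apoptotic cells overlapped, and all 4 cytochalasin D libraries lay above every library of the other 3 groups. The control mean of 22.2 ± 0.925 CPM and the mean of 21.1 ± 1.73 CPM with apoptotic cells (SD, n = 4 each) gave no called difference (log2 fold change -0.07, SE 0.08, edgeR adjusted p = 0.590). Cytochalasin D raised Stat2 to 27.3 ± 1.06 CPM (log2 fold change 0.29, SE 0.08, edgeR adjusted p = 0.0059), in groups that did not overlap, as was so for 24.3% of all genes. Apoptotic cells on top of cytochalasin D gave 23.9 ± 1.58 CPM, a log2 fold change of -0.19 (SE 0.08) that was not called (edgeR adjusted p = 0.138), although these groups did not overlap either, as for 13.5% of all genes.

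In the second experiment Stat2 was 16.44, 18.72, 18.15 and 17.56 CPM in wildtype libraries and 12.93, 13.56, 11.28 and 11.41 CPM in deficient libraries. Every deficient library lay below every wildtype library, and groups did not overlap for 39.6% of all genes. The mean fell from 17.7 ± 0.973 to 12.3 ± 1.13 CPM, a 1.44-fold difference (log2 fold change -0.53, SE 0.08, edgeR adjusted p = 6.34e-05).

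Irf9, the DNA-binding subunit of the same complex, did not follow Stat2. It was 11.10, 10.55, 9.85 and 14.68 CPM in control, 15.83, 10.22, 12.65 and 12.02 CPM with cytochalasin D, 11.20, 9.07, 9.18 and 11.31 CPM with apoptotic cells, and 12.22, 11.53, 14.82 and 11.50 CPM with both. Control overlapped with each of the other 3 groups, and no comparison of the first experiment called Irf9. Its fold change with apoptotic cells was -0.17 on the log2 scale (SE 0.14, edgeR adjusted p = 0.472), and -0.01 when both groups had cytochalasin D (SE 0.14, edgeR adjusted p = 0.982). In the second experiment Irf9 was 10.01, 10.03, 10.46 and 10.37 CPM in wildtype and 11.10, 12.46, 12.83 and 13.19 CPM in deficient libraries. All 4 deficient libraries were above all 4 wildtype libraries, and genotypes did not overlap for 39.6% of all genes. The difference was small, 1.21-fold, from 10.2 ± 0.232 to 12.4 ± 0.910 CPM (log2 fold change 0.28, SE 0.08, edgeR adjusted p = 0.00827). Stat2 and Irf9 thus moved in opposite directions in the deficient cells.

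Irf1, the transcription factor best known as a target of interferon gamma, was lower with corpses in the first experiment and much higher in deficient cells in the second. Its level was 17.38, 20.32, 16.34 and 15.76 CPM in control and 14.31, 13.56, 13.19 and 11.02 CPM with apoptotic cells. With cytochalasin D it was 15.91, 14.34, 16.68 and 16.81 CPM, and with both 12.00, 11.41, 13.06 and 9.95 CPM. Every library with apoptotic cells lay below every library without them, in the presence and in the absence of the drug. Against control, Irf1 fell from 17.4 ± 2.02 to 13.0 ± 1.41 CPM, 1.35-fold (log2 fold change -0.43, SE 0.11, edgeR adjusted p = 0.00965), and groups did not overlap for 19.6% of all genes in that comparison. With cytochalasin D in both groups, where 13.5% of all genes did not overlap, it fell from 15.9 ± 1.14 to 11.6 ± 1.30 CPM, 1.37-fold (log2 fold change -0.45, SE 0.11, edgeR adjusted p = 0.0124). That call was lost without replicate 4 of the group with both (log2 fold change -0.38, edgeR adjusted p = 0.0563). The drug itself left Irf1 without a called change (log2 fold change -0.13, SE 0.11, edgeR adjusted p = 0.398), and the response to corpses with the drug minus that without it was -0.02 (SE 0.16, edgeR adjusted p = 0.958).

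In wildtype phagocytes of the second experiment Irf1 was 8.63, 8.60, 6.99 and 6.83 CPM, and in deficient phagocytes 20.42, 21.61, 15.05 and 16.65 CPM. The lowest deficient library was thus well above the highest wildtype library, and genotypes did not overlap for 39.6% of all genes. The mean rose from 7.76 ± 0.988 to 18.4 ± 3.09 CPM, 2.38-fold (log2 fold change 1.25, SE 0.12, edgeR adjusted p = 5.92e-07), the largest change of the 6 genes in any of the comparisons made here. The wildtype mean lay below the group means of the first experiment, 11.6 to 17.4 CPM, and the experiments were not tested against each other. The titles number the libraries of the second experiment 9 to 16, with 2 libraries of each genotype among 9 to 12 and 2 among 13 to 16. What the numbers stand for is not given in the sources used here. Irf1 was lower in libraries 13 to 16 than in 9 to 12 in both genotypes (log2 difference -0.37, edgeR adjusted p = 0.00495). The ratio of deficient to wildtype was 2.44 within libraries 9 to 12 and 2.29 within 13 to 16. For Irf9 these ratios were 1.18 and 1.25, and for Stat2 they were 0.753 and 0.635, each on the same side of 1 as over all 8 libraries.

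Irf7, which drives type I interferon genes, was near the lower end of what the libraries could measure. It ranged from 1.33 to 2.07 CPM in control, 1.34 to 2.74 with cytochalasin D, 0.714 to 1.74 with apoptotic cells, 1.47 to 2.06 with both, 0.628 to 0.874 in wildtype and 0.355 to 0.766 in deficient libraries. The groups compared overlapped in every comparison and none was called. The largest fitted change was 0.55 on the log2 scale with cytochalasin D against control (SE 0.29, edgeR adjusted p = 0.180), where 3 of the 4 drug-treated libraries lay above every control library and replicate 3 lay among them. Between genotypes the log2 fold change was -0.30, with a 95% interval from -0.82 to 0.22 (edgeR adjusted p = 0.395).

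Oasl showed the largest response to corpses in the first experiment. Its level was 20.29, 22.32, 20.72 and 19.54 CPM in control, and 11.98, 11.42, 13.43 and 14.84 CPM with apoptotic cells. It was 24.30, 31.02, 24.18 and 25.47 CPM with cytochalasin D and 10.59, 9.57, 12.99 and 12.87 CPM with both. The libraries fell into an upper range of 19.54 to 31.02 CPM without corpses and a lower range of 9.57 to 14.84 CPM with them, with nothing between. Groups with and without corpses did not overlap for 19.6% of all genes without the drug and for 13.5% with it. Oasl fell 1.60-fold against control, from 20.7 ± 1.17 to 12.9 ± 1.54 CPM (log2 fold change -0.68, SE 0.11, edgeR adjusted p = 0.000218). In the presence of the drug it fell from 26.2 ± 3.24 to 11.5 ± 1.70 CPM (log2 fold change -1.18, SE 0.11, edgeR adjusted p = 1.86e-07).

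Cytochalasin D by itself raised Oasl 1.26-fold (log2 fold change 0.34, SE 0.10, edgeR adjusted p = 0.0182). That call rested on 1 library, since without replicate 2 of the cytochalasin D group, at 31.02 CPM, the log2 fold change was 0.24 (edgeR adjusted p = 0.105). In the presence of corpses the drug made no called difference to Oasl (log2 fold change -0.16, SE 0.12, edgeR adjusted p = 0.308). The fall with apoptotic cells was larger by 0.50 on the log2 scale with the drug than without it (SE 0.16, unadjusted p = 0.00391 in edgeR's test across all genes), and this difference was not called after adjustment (edgeR adjusted p = 0.0657). DESeq2 called it (DESeq2 adjusted p = 0.0408), as did edgeR without cytochalasin D replicate 4 (edgeR adjusted p = 0.0405) or without apoptotic replicate 2 (edgeR adjusted p = 0.0484). These were 3 of 23 alternative settings, and in the other 20 the difference was not called. No other member had an unadjusted p under 0.05 for this difference, where 4.56% of all genes were called (3.03% higher and 1.53% lower), and DESeq2, which gave an adjusted p for 4 of the 6, called 1 of these and 976 of 10217 genes.

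In the second experiment, where all cells had met corpses, Oasl was 7.10, 6.09, 4.00 and 4.77 CPM in wildtype and 6.04, 7.0, 5.14 and 5.51 CPM in deficient libraries. The genotypes overlapped, at 5.49 ± 1.38 and 5.92 ± 0.808 CPM (log2 fold change 0.11, 95% interval -0.19 to 0.42, edgeR adjusted p = 0.598). The sign of this small difference turned without wildtype replicate 3 (log2 fold change -0.02). Oasl was also lower in libraries 13 to 16 than in 9 to 12 (log2 difference -0.44, edgeR adjusted p = 0.0289). The levels of both genotypes lay below those of the first experiment, which was a separate experiment without sorting, and the experiments were not tested against each other.

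Isg15, the ubiquitin-like modifier, was the least abundant member in the first experiment. It ranged from 0.511 to 0.991 CPM in control, 0.560 to 1.40 with cytochalasin D, 0.311 to 1.92 with apoptotic cells, 0.368 to 0.944 with both, 0.475 to 0.747 in wildtype and 0.359 to 0.729 in deficient libraries. All groups compared overlapped, and the libraries with apoptotic cells held both the lowest and the highest value. The fitted log2 fold change with apoptotic cells was 0.65 with a 95% interval from -0.20 to 1.51 (edgeR adjusted p = 0.347), and between genotypes it was -0.22 with an interval from -0.78 to 0.34 (edgeR adjusted p = 0.575).

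The remaining comparison asks what the drug changed in phagocytes that had met corpses. In edgeR none of the 6 genes was called there, against 32.5% of all genes (16.4% higher and 16.1% lower), and DESeq2 called 0 as well. An unadjusted p under 0.05 was reached by 2 of the 6. Irf9 had a log2 fold change of 0.30 (SE 0.14, edgeR adjusted p = 0.109), in groups that did not overlap, as for 32.1% of all genes. Stat2 had a log2 fold change of 0.18 (SE 0.08, edgeR adjusted p = 0.0914), and it passed the threshold without apoptotic replicate 3 (edgeR adjusted p = 0.0386).

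**Figure D2:**
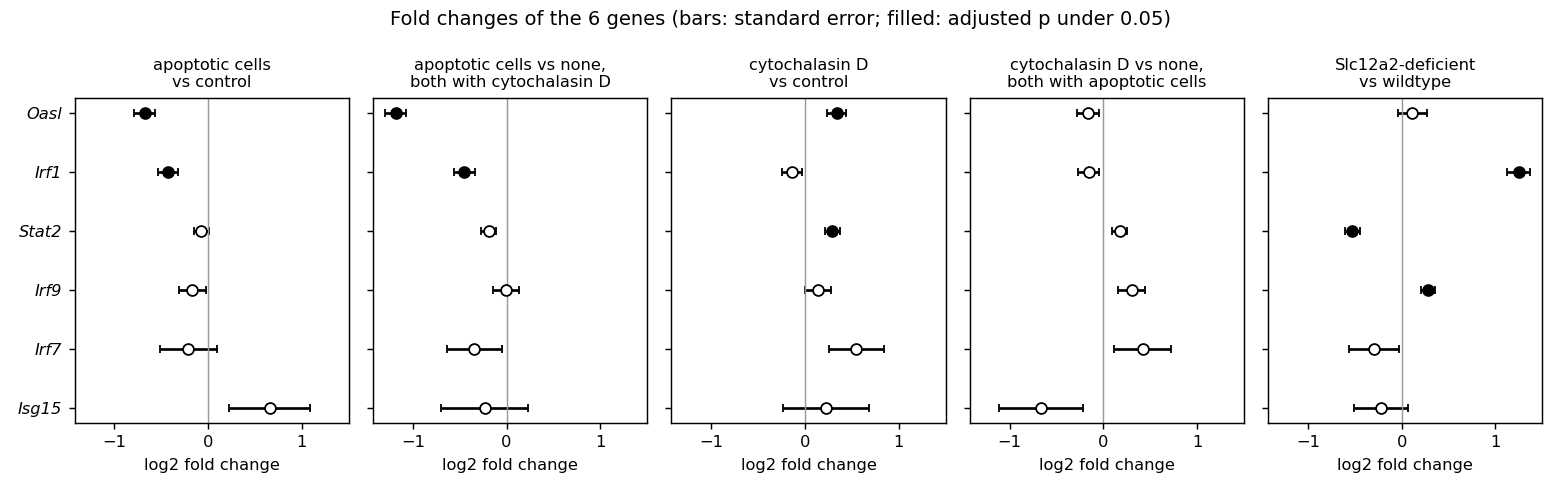
Log2 fold changes of the 6 genes in 5 comparisons, with bars of 1 standard error, filled where the edgeR adjusted p was under 0.05; all panels share 1 horizontal axis. Oasl and Irf1 are filled and left of 0 in both comparisons of apoptotic cells, at -0.68 and -0.43 without and at -1.18 and -0.45 with the drug, and Irf1 stands at 1.25 in deficient cells. Panels of the first experiment share groups with each other, so their values are not independent.

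The order of the group means in the first experiment differed between the genes. For Oasl it ran from cytochalasin D at 26.2 CPM through control and apoptotic cells to both at 11.5 CPM, and only the last neighbours had no called difference. For Irf1 it ran from control at 17.4 CPM through cytochalasin D and apoptotic cells to both at 11.6 CPM. There was no called difference between the first neighbours or between the last, and the middle neighbours were not compared. For Stat2 it ran from cytochalasin D at 27.3 CPM through both and control to apoptotic cells at 21.1 CPM. Neither the first neighbours nor the last had a called difference, and the middle neighbours were not compared. Across the 16 libraries, the closest pair of members was Oasl and Irf1, with a Pearson r of 0.709 of log2(CPM + 0.5), followed by Irf7 and Stat2 with 0.682. Across the 8 libraries of the second experiment, Irf9 and Stat2 ran opposite to each other with r = -0.910, and Irf1 and Stat2 with r = -0.841. These are descriptions that carry the differences between the groups as well as those between libraries of a group.

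The same measure over 16 libraries named the genes with the most similar pattern among about 8920 others with a symbol and a mean of at least 4 CPM. For Oasl these were Bach1 (r = 0.933), Smurf1 (r = 0.930) and Nupr1 (r = 0.920). For Irf1 they were Atg13 (r = 0.899), Dpysl2 (r = 0.885) and Sh3d19 (r = 0.868), and for Stat2 they included Stk10 (r = 0.925) and Ctsd (r = 0.924). For Irf9 the closest was Arl4a (r = 0.793), for Irf7 it was Snx19 (r = 0.860), and for Isg15 it was Taf6 (r = 0.871).

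The members stand in a wider pathway, for which 115 other genes were listed by role: interferons, their receptors, the JAK-STAT cascade, nucleic acid sensors, other interferon regulatory factors, ISG15 conjugation, antiviral effectors, and antigen presentation with chemokines. The tables held 88 of them by symbol, of which 57 could be tested in the first experiment and 61 in the second. The listed genes not found by symbol could not be read. Among them were the type I interferon genes Ifnb1 and Ifna1, the receptor chain Ifnar2, and the effectors Ifit1, Mx1, Mx2, Oas1 and Oas2. The tables held 3 of the 8 interferon genes and 31 of the 48 antiviral effectors listed. Of the genes found, many that interferon induces strongly had few or no counts in any group. Rsad2, Cmpk2, Rtp4 and Zbp1 had 0 counts in all 24 libraries. Ifit2, Ifit3 and Oas3 had 6, 3 and 1 counts in all 16 libraries of the first experiment together, and 3, 3 and 0 in the 8 of the second. The chemokines Cxcl10, Cxcl9 and Ccl5 had 17, 12 and 6 counts in the first experiment and 19, 11 and 32 in the second. Of the 31 antiviral effectors in the tables, 12 were too low to be tested in each experiment. A floor of 3 counts in a library corresponded to 0.156 to 0.368 CPM in the first experiment and 0.108 to 0.133 CPM in the second.

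With apoptotic cells against control, 3 of the 57 other pathway genes were higher and 8 were lower, 19.3% against 13.7% of all genes, with a median log2 fold change of -0.05 against 0.00 for all genes tested. Parp14, an ADP-ribosyltransferase induced by interferon, was lower at 9.63 to 11.3 CPM against 15.2 to 18.5 CPM in control (log2 fold change -0.61, edgeR adjusted p = 0.000322). Samd9l, an antiviral restriction factor, was lower at 6.69 to 10.3 against 12.1 to 13.3 CPM (log2 fold change -0.49, edgeR adjusted p = 0.00918). In the signalling steps, Jak2, the kinase bound to the interferon gamma receptor, was lower (log2 fold change -0.28, edgeR adjusted p = 0.00139), as were Traf3, an adaptor of nucleic acid sensing (log2 fold change -0.34, edgeR adjusted p = 0.00201), and Irf2, which competes with Irf1 for its DNA sites (log2 fold change -0.36, edgeR adjusted p = 0.00227). Socs3, a feedback inhibitor of JAK-STAT signalling, was higher at 15.1 to 16.5 against 8.46 to 12.3 CPM (log2 fold change 0.63, edgeR adjusted p = 0.00173). Both other higher genes, Psmb10 and Stat3, lost their call in 9 and 6 of 16 alternative settings. By role, 4 of 19 antiviral effectors, 2 of 4 other interferon regulatory factors, 1 of 8 sensors and 1 of 10 JAK-STAT genes were lower, while 2 JAK-STAT genes and 1 of 10 antigen presentation genes were higher.

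When both groups had cytochalasin D, 5 of the 57 were lower with apoptotic cells and none was higher. The share called in either direction, 8.77% against 8.61% of all genes, was at the background. Of all genes, 3.79% were lower and 4.82% higher. The median log2 fold change was -0.12 against -0.01 for all genes. This comparison shares no library with the one above. Parp14 was again lower, at 7.61 to 9.18 against 9.83 to 12.4 CPM (log2 fold change -0.47, edgeR adjusted p = 0.00801), as was Traf3 (log2 fold change -0.29, edgeR adjusted p = 0.00964). Traf3 lost its call without cytochalasin D replicate 2 (edgeR adjusted p = 0.0522). Helz2, a helicase that acts as a transcriptional coactivator and is induced by interferon, was lower at 76.7 to 80.6 against 88.0 to 101 CPM (log2 fold change -0.27, edgeR adjusted p = 0.00359). Without the drug Helz2 was also lower with apoptotic cells (log2 fold change -0.23, edgeR adjusted p = 0.0107), a value chosen after it was seen. That call was lost in 3 of 16 alternative settings. Among these were the fit without control replicate 2 (edgeR adjusted p = 0.0504) and that with each library's trend with gene length removed (edgeR adjusted p = 0.0955). The kinase Tyk2 (log2 fold change -0.25) and the receptor chain Ifngr2 (log2 fold change -0.24) were just past the threshold, at edgeR adjusted p = 0.0386 and 0.0382, and lost their calls in 7 and 9 of 16 alternative settings. For the difference between the responses with and without the drug, 1 of the 57 was called, 1.75% against 4.56% of all genes. This was Socs3 (log2 difference -0.65, edgeR adjusted p = 0.0418), which was 8.07 to 12.8 CPM with both and 9.59 to 11.8 CPM with the drug alone. That call was lost in 13 of 23 alternative settings.

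Cytochalasin D against control gave 6 higher and 7 lower genes of 57, 22.8% against 26.3% of all genes, with a median log2 fold change of 0.05 against 0.01 for all genes. Helz2 rose from 69.5 ± 6.20 to 95.2 ± 6.0 CPM (log2 fold change 0.46, edgeR adjusted p = 2.02e-06), Znfx1, an RNA sensor at mitochondria, rose from 46.3 ± 2.57 to 62.2 ± 5.06 CPM (log2 fold change 0.43, edgeR adjusted p = 8.45e-05), and Trim25, the ubiquitin ligase that activates RIG-I, rose from 31.9 ± 1.23 to 41.2 ± 4.97 CPM (log2 fold change 0.37, edgeR adjusted p = 0.00209). Parp14 fell from 16.5 ± 1.38 to 11.4 ± 1.12 CPM (log2 fold change -0.53, edgeR adjusted p = 0.000396) and Jak2 from 109 ± 2.81 to 87.2 ± 7.11 CPM (log2 fold change -0.33, edgeR adjusted p = 6.82e-05). Mb21d1, which encodes the DNA sensor cGAS, fell (log2 fold change -0.44, edgeR adjusted p = 0.00981) but lost its call without control replicate 1 (edgeR adjusted p = 0.0526). Oasl, Stat2, Helz2, Znfx1 and Trim25 thus rose with the drug while Parp14 and Jak2 fell, and the antiviral effectors were split evenly, 4 higher and 4 lower of 19.

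Among phagocytes with corpses, the drug gave 7 higher and 11 lower genes of 57, 31.6% against 32.5% of all genes, with a median log2 fold change of -0.05 against 0.00 for all genes. The peptide transporter subunits Tap1 and Tap2 and their partner Tapbp, which load peptides for antigen presentation, were lower together. Tap2 was 34.4 to 38.8 against 44.4 to 51.6 CPM (log2 fold change -0.43, edgeR adjusted p = 0.000821), Tap1 32.3 to 35.3 against 38.6 to 48.5 CPM (log2 fold change -0.35, edgeR adjusted p = 0.00306), and Tapbp 189 to 260 against 271 to 326 CPM (log2 fold change -0.37, edgeR adjusted p = 0.00236). Mb21d1 was lower, at 7.23 to 7.61 against 10.7 to 13.8 CPM (log2 fold change -0.73, edgeR adjusted p = 0.000103). Ticam1, the adaptor of Tlr3, was higher (log2 fold change 0.72, edgeR adjusted p = 0.00495), as were Samd9l (log2 fold change 0.57, edgeR adjusted p = 0.000934) and Helz2 (log2 fold change 0.41, edgeR adjusted p = 8.78e-06). This comparison shares its libraries with the comparisons of each drug-free and drug-treated group above.

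**Figure D3:**
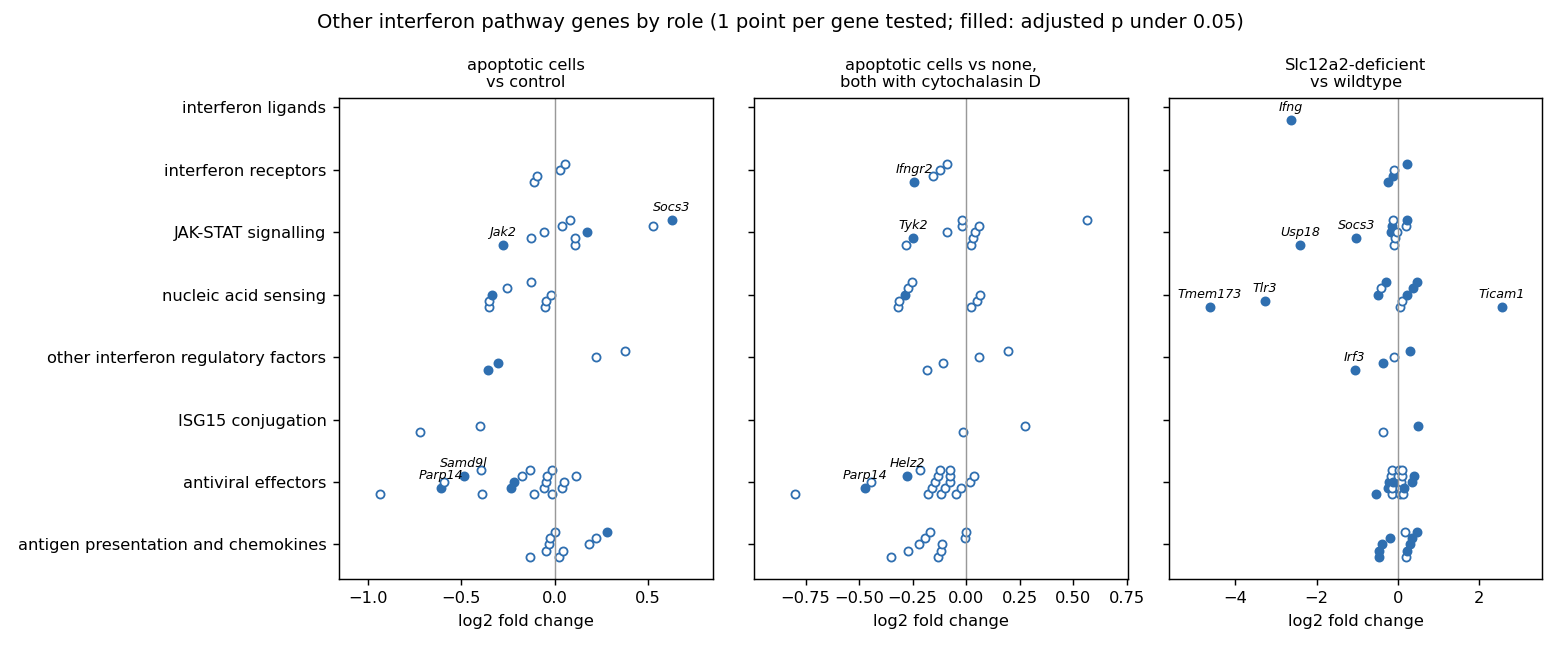
Log2 fold change of every other pathway gene tested, 1 point per gene, in rows by role and filled where the edgeR adjusted p was under 0.05. The left and middle panels show apoptotic cells without and with cytochalasin D, and the right panel shows deficient against wildtype cells on a wider axis. Most points lie within 0.5 of 0, and the right panel has Usp18 at -2.41 and Ticam1 at 2.55, while the points of Tmem173, Tlr3 and Ifng are fitted values of few counts that depend on the fit's prior count.

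Slc12a2 itself was 91.2 to 103 CPM in wildtype and 22.4 to 26.2 CPM in deficient libraries (log2 fold change -1.97, edgeR adjusted p = 1.14e-12), and no wildtype and deficient library overlapped. Among the 61 other pathway genes tested in that experiment, 15 were higher and 21 lower in deficient cells, 59.0% against 42.5% of all genes, with a median log2 fold change of -0.09 against 0.00. The nucleic acid sensors held several of the largest differences, in both directions. Tmem173, which encodes the DNA-sensing adaptor STING, had 32, 27, 28 and 23 counts in wildtype libraries and 3, 0, 1 and 0 in deficient libraries (edgeR adjusted p = 1.22e-06). Tlr3, the endosomal receptor for double-stranded RNA, had 16, 13, 23 and 10 counts in wildtype and 1, 2, 1 and 2 in deficient libraries (edgeR adjusted p = 2.72e-05). Tlr3 and Tmem173 were low everywhere, were singled out after their values were seen, and did not overlap between genotypes, as for 39.6% of all genes. Ticam1, the adaptor through which Tlr3 signals, went the other way, from 0.557 ± 0.283 to 3.23 ± 0.328 CPM (log2 fold change 2.55, SE 0.24, edgeR adjusted p = 4.99e-07). Its group means in the first experiment, which was not tested against the second, ran from 3.75 CPM with apoptotic cells to 6.18 CPM with both. The wildtype mean lay below all of these. Ifih1, the cytoplasmic RNA sensor MDA5, was lower at 7.56 ± 1.75 against 10.6 ± 0.743 CPM (log2 fold change -0.50, edgeR adjusted p = 0.00729), and Traf3 was higher at 55.0 ± 4.15 against 39.6 ± 1.88 CPM (log2 fold change 0.47, edgeR adjusted p = 1.22e-05). In all, 4 of 11 sensing genes tested were higher and 4 lower.

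Irf3, the transcription factor activated by these sensors, was 3.59 to 4.34 CPM in deficient and 7.57 to 9.50 CPM in wildtype libraries, a 2.10-fold fall (log2 fold change -1.07, SE 0.11, edgeR adjusted p = 9.68e-07). Of the feedback inhibitors of JAK-STAT signalling, Usp18, which removes Isg15 from proteins and blocks the type I interferon receptor, fell from 1.80 ± 0.30 to 0.336 ± 0.0660 CPM (log2 fold change -2.41, SE 0.23, edgeR adjusted p = 6.43e-07), and Socs3 fell from 6.61 ± 0.584 to 3.22 ± 0.525 CPM (log2 fold change -1.02, edgeR adjusted p = 8.13e-06). Isg15, on which Usp18 acts, had no called change. Ifng, the gene of interferon gamma, had 16, 15, 11 and 10 counts in wildtype and 2, 1, 4 and 1 counts in deficient libraries (edgeR adjusted p = 0.000179), and was likewise singled out after its values were seen. Of the 4 receptor genes tested, 1 was higher and 2 were lower. Of the 2 ISG15 conjugation genes tested, Uba7, the enzyme that activates Isg15, was higher (log2 fold change 0.50, edgeR adjusted p = 0.0418), and it lost its call in 7 of 15 alternative settings. Antigen presentation was split, with 4 genes higher and 4 lower of 10. Tap1 fell from 32.7 ± 1.30 to 25.0 ± 1.54 CPM (log2 fold change -0.38, edgeR adjusted p = 0.000105) and Tap2 from 39.9 ± 2.23 to 28.7 ± 3.70 CPM (log2 fold change -0.48, edgeR adjusted p = 0.00018), while Tapbp rose from 140 ± 3.74 to 193 ± 11.1 CPM (log2 fold change 0.46, edgeR adjusted p = 1.30e-06). Of 19 antiviral effectors, 3 were higher and 4 lower, and among the higher ones Bst2, the tetherin that holds budding virus at the cell surface, rose from 197 ± 9.03 to 261 ± 13.2 CPM (log2 fold change 0.41, edgeR adjusted p = 7.04e-06). The rise of Irf1 thus stood beside lower levels of Irf3, Stat2, Usp18 and Socs3. Of the 7 fibroblast markers tested, 6 were lower in deficient cells. Their log2 fold changes were -2.53 for Col3a1, -2.28 for Pdgfrb, -0.93 for Fn1, -0.89 for Dcn, -0.48 for S100a4 and -0.37 for Pdgfra, with edgeR adjusted p from 5.65e-08 to 0.000763, while Vim was higher (log2 fold change 0.20, edgeR adjusted p = 0.00157). Summed T cell markers were lower, 23.3 to 28.1 against 29.6 to 32.3 CPM, with Lat (log2 fold change -1.21, edgeR adjusted p = 4.67e-07) and Cd28 (-1.52, edgeR adjusted p = 3.71e-06) lower and Tcf7 higher (0.20, edgeR adjusted p = 0.037). Lck was at 0 to 4 counts and Zap70 at 0 in both genotypes. The part of these markers in the differences between genotypes was not tested.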

How the data were processed

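RNA of LR73 phagocytes was sequenced as 75 bp paired-end reads in 24 libraries. Per the file headers, the authors counted fragments over exons with featureCounts 1.5.0, requiring both ends to align, without a strand option, on alignments from STAR. The deposited values are these counts per gene name, unnormalized. The submitters' processing notes also name FastQC and DESeq2, and no versions. The genome build is not given in the sources used here. Rows without a name were left out (0.0249% to 0.0445% of counts in the first experiment, 1.13% to 1.65% in the second).

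Each experiment was fitted by itself in edgeR 4.0.16 (R 4.3.3) on group alone. Low genes were removed by filterByExpr at a minimum count of 10 and a minimum total of 15, scaling used TMM, and the test was the quasi-likelihood F test with Benjamini-Hochberg adjustment over all genes and a threshold of 0.05. The SE is the log2 fold change divided by the square root of F. Biological coefficients of variation were 7.04% and 6.06%, and no 2 libraries were identical. Libraries of the first experiment were not paired by replicate number in this fit. The correlation of deviations of same-numbered libraries ran from -0.0928 to 0.267. It was highest between cytochalasin D with and without apoptotic cells, at 0.252 for replicate 1 and 0.267 for replicate 4. These values do not settle whether the numbers pair libraries.

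The members and the gene lists were chosen with earlier results of these data known. Of the other pathway genes, the rule named up to 6 called genes per direction and comparison by fold change with a mean of at least 1 CPM, of which a subset is given, and 3 similar genes per member. Alternatives were DESeq2 1.42.0, relative log expression factors, other filters, an adjusted p under 0.01, a gene-length correction, the compared groups alone, a replicate block and each library left out; a term for library numbers was chosen after seeing the data. Sequences of the genes were not used here. Some items are not reported.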

Additional observations from a re-analysis of the deposited data

Results flagged for a closer look

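The lowest of the cytochalasin D libraries for Irf7, replicate 3 at 1.34 CPM, lay apart from the other 3 at 2.57 to 2.74 CPM by more than Dixon's 95% limit for 4 values allows. It was the only such library in 36 groups of 4 checked, and chance alone marks about 1 in 20 groups.

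The response of Socs3 to apoptotic cells differed with and without cytochalasin D by -0.65 on the log2 scale in the test of the difference itself (edgeR adjusted p = 0.0418). It rose with corpses without the drug, from 10.2 ± 1.63 to 15.5 ± 0.658 CPM, and was 9.59 to 11.8 CPM with the drug alone and 8.07 to 12.8 CPM with both. The call for the difference was lost in 13 of 23 alternative settings.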

How the results depend on the processing

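In the first experiment, Oasl and Irf1 were lower with apoptotic cells against control in all 16 alternatives, with edgeR or DESeq2 adjusted p up to 0.00141 and 0.0447. In the second, Irf1, Irf9 and Stat2 kept their calls in all 15, including the term for library numbers 9 to 12 and 13 to 16 (3 members and 6226 genes called). At an adjusted p under 0.01 the calls were 785 genes for apoptotic cells, 2233 genes and 1 member for cytochalasin D, 532 genes and 1 member for apoptotic cells with the drug in both groups, 2828 genes for the drug among phagocytes with corpses, and 132 for the difference between effects. For that difference DESeq2 called 976 genes and 1 member, and edgeR without a filter 928 genes; the cause was not tested. With each library left out in turn, in the same order, 1103 to 1700 genes and 2 to 2 members were called for apoptotic cells, 2866 to 3596 and 1 to 2 for cytochalasin D, 756 to 1639 and 1 to 2 with the drug in both groups, 3483 to 4122 and 0 to 1 for the drug among phagocytes with corpses, 251 to 1645 and 0 to 1 for the difference, and 4774 to 5690 and 3 to 3 between genotypes. The lowest count for apoptotic cells and for the difference came without apoptotic replicate 3. For the difference, the count was also lower by more than 1.5 times without control replicate 1, cytochalasin D replicates 1, 2 or 3, apoptotic replicate 4, or replicates 3 or 4 of the group with both, and its highest count came without cytochalasin D replicate 4. Signs turned only for members without a call. With the gene-length trend removed, the difference between effects was 0.074 for Irf1. Without single libraries it ran from -0.10 to 0.050 for Irf1 and from -0.33 to 0.016 for Irf7. With the drug in both groups, Irf9 ran from -0.10 to 0.11 and Isg15 from -0.44 to 0.12. Isg15 ran from -0.13 to 0.38 for cytochalasin D, and Oasl from -0.016 to 0.27 between genotypes. The replicate block gave 1863, 3412, 1117, 4272 and 753 genes for these 5 comparisons of the first experiment and changed no member's call. In the second experiment no library number is shared between genotypes, so single libraries were not paired, and the term for numbers 9 to 12 and 13 to 16 was the only block fitted. The counts behind Irf7 and Isg15 limit what could be seen of them.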
